A study of Homo sapiens with 9 samples.

Results

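Silencing at the exit of de novo ceramide synthesis (DEGS1 siRNA) was set directly against silencing at its entry (SPTLC123 siRNA) in Huh7, an established human hepatocarcinoma cell line. The arrays whose titles name these siRNAs were taken, 3 for each, which makes 6 of the 9 arrays of the series. The other 3 received scramble siRNA and appear as reference values. All cells were transfected with synthetic siRNA at a final 20 nM in a lipid reagent, so the groups differ, as labelled, only in the siRNA: against SPTLC1 and the further SPTLC subunits, against DEGS1, or scrambled. The cells came from a single line grown in 10% serum. The labels call the arrays biological replicates taken at 72 h. The treatment protocol, the same for all 9 arrays, adds conditioned medium with 1% serum at 72 h and harvests 24 h later. These statements were not reconciled here.

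Serine palmitoyltransferase, built from the SPTLC subunits, joins serine to a fatty acyl-CoA and thereby commits carbon to sphingolipids. Its product is reduced and acylated by the ceramide synthases to dihydroceramide, into which DEGS1 places the double bond that makes ceramide. Loss of the first enzyme is known to lower all intermediates that follow, whereas loss of DEGS1 is known to raise dihydroceramide while ceramide falls. The comparison therefore asks which transcripts separate siRNA meant to block after dihydroceramide from siRNA meant to block before it. Each block came with its own siRNA. An effect of an siRNA on transcripts other than its target cannot be told apart from an effect of the block, and was not tested. Lipids were not analysed here.

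Levels are log2 of the deposited normalized intensity, 1 probe set for each gene, and differences are DEGS1 minus SPTLC123 siRNA with the SE of limma's moderated fit over all 9 arrays. Calls were made where the adjusted p (Benjamini-Hochberg over 19775 genes) was under 0.05. In SPTLC123 replicate 3 and DEGS1 replicates 2 and 3 the 3' controls of actin exceeded its 5' controls by 1.15 to 1.31, against 0.40 to 0.56 in the other 6 arrays, and the GAPDH controls split the arrays the same way. These 3 arrays are called arrays of weak 5' signal. A difference within each class of arrays is given as a pair, first DEGS1 replicate 1 minus the mean of SPTLC123 replicates 1 and 2, then the mean of DEGS1 replicates 2 and 3 minus SPTLC123 replicate 3. A fit without the 3 arrays leaves 1 DEGS1 array, whose spread is then taken from the other groups. A call lost in it comes with fewer arrays as well as with the loss of the weak 5' class, and these cannot be told apart. Of 10 hepatocyte and hepatoma markers 9 were measured and each of these exceeded the all-probe-set median of 4.87, with albumin (ALB) at 14.26 and alpha-fetoprotein (AFP) at 14.31 over the 9 arrays. Of 25 markers of endothelial, blood, stellate and bile duct cells 24 were measured and 10 lay above that median, namely LYZ (12.77), SOX9, EPCAM (10.61), KRT19 (7.67), PECAM1 (7.61), KRT7 (6.24), RGS5 (5.59), DES (5.35), ACTA2 (5.01) and VWF (4.88). The other 14, among them endothelial CDH5 (3.14), leukocyte PTPRC (3.54) and stellate LRAT (2.98), lay below it. The log2 of the summed intensity of these 24 genes ranged from 13.39 to 13.59 in DEGS1 and from 13.55 to 13.81 in SPTLC123 arrays. The 2 members called were LYZ at -0.38 ± 0.10 (adjusted p = 0.0438) and PECAM1 at -0.37 ± 0.10 (adjusted p = 0.0412). Leaving out single arrays ended the call of LYZ without DEGS1 replicate 2 or 3 or SPTLC123 replicate 1, 2 or 3 (adjusted p from 0.0859 to 0.174) and PECAM1 without DEGS1 replicate 1 or 3 or SPTLC123 replicate 1 or 2 (adjusted p from 0.0554 to 0.166). With probe sets averaged, the call was lost for LYZ (-0.80, adjusted p = 0.0756) and PECAM1 (-0.25, adjusted p = 0.174). Without the 3 arrays of weak 5' signal the call was lost for LYZ and PECAM1 (adjusted p from 0.205 to 0.491, at 0.708 to 1.16 times the difference over all arrays). The part of these markers and of the 5' signal in the results was not tested.

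Each targeted transcript was lowest in the group whose siRNA was directed at it, and its DEGS1 and SPTLC123 arrays did not overlap. Over all genes tested, the arrays of these 2 groups did not overlap in 5036 of 19775 (25.5%). DEGS1 read 5.19, 5.01 and 4.80 in the DEGS1 arrays, 8.85, 8.73 and 8.25 in the SPTLC123 arrays and 8.84, 8.75 and 8.59 in the scramble arrays. SPTLC1 read 10.93, 10.61 and 10.62 in the DEGS1 arrays, 8.53, 8.77 and 8.72 in the SPTLC123 arrays and 11.02, 10.83 and 10.98 in the scramble arrays. SPTLC2 read 6.40, 6.24 and 6.29 in the DEGS1 arrays, 4.87, 5.22 and 5.13 in the SPTLC123 arrays and 5.97, 6.13 and 6.25 in the scramble arrays. DEGS1 was 12.2-fold lower in the DEGS1 group, at -3.61 ± 0.16 (adjusted p = 1.56e-06), and SPTLC1 was 4.12-fold higher there, at 2.04 ± 0.11 (adjusted p = 4.64e-06). SPTLC2 differed by 1.24 ± 0.11 (adjusted p = 9.31e-05). Of the other probe sets, the 1 for DEGS1, both for SPTLC1 and all 4 for SPTLC2 had the same sign, and 1, 2 and 1 of them were called. The remaining targeted subunit was not analysed here.

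**Figure D1:**
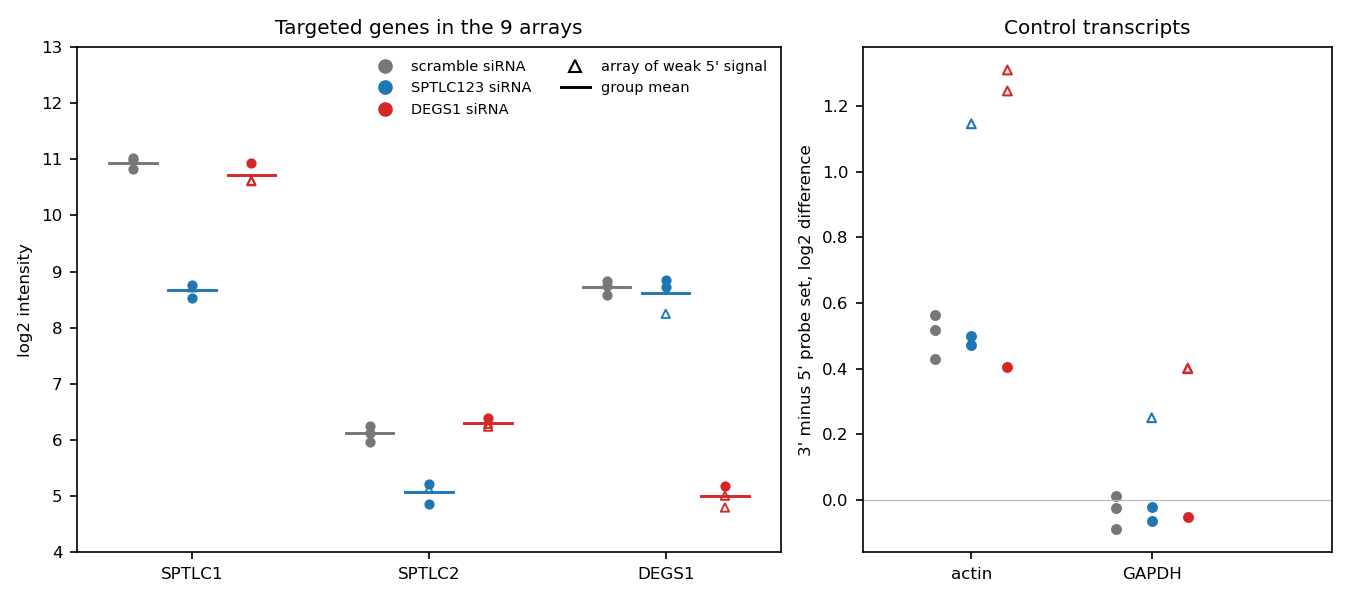
Left, log2 intensity of SPTLC1, SPTLC2 and DEGS1 in each of the 9 arrays, with a bar at the mean of each group of 3. Right, log2 difference between the 3' and 5' control probe sets of actin and GAPDH in each array. Open triangles mark SPTLC123 replicate 3 and DEGS1 replicates 2 and 3, which stand above 1.1 for actin while the other 6 arrays lie between 0.40 and 0.56.

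Between the knockdowns, enzymes that reduce carbonyls and form glucuronides, led by AKR1B10 (-3.78), AKR1C1 (-2.13) and UGT2B4 (-2.37), were lower in DEGS1 than in SPTLC123 siRNA, as were genes of glutathione and NADPH supply such as GCLC (-1.06) and ME1 (-1.03). Higher in DEGS1 than in SPTLC123 siRNA were the ceramide synthase CERS2 (1.68), the superoxide dismutase SOD2 (1.89), the haem enzyme CPOX (2.25) and the collagen hydroxylase PLOD2 (2.01). Against scramble, CERS2, SOD2, CPOX and PLOD2 differed by -1.53, -1.99, -2.93 and -2.455 in SPTLC123 siRNA. In DEGS1 siRNA they differed from scramble by 0.15, -0.10, -0.69 and -0.45. In all, 1713 genes (8.66% of 19775) differed between the knockdowns, 732 higher (3.70%) and 981 lower (4.96%) in DEGS1 siRNA, and 224 of them (1.13%) by at least 2-fold, 105 higher and 119 lower. Median centring gave 548 higher and 1179 lower, so 31.7% higher against 42.7%. With arrays left out the count was 868 and 884 without DEGS1 replicates 2 and 3, 841 and 1011 without SPTLC123 replicates 1 and 2, and 2911 without DEGS1 replicate 1. A gene's call lost with 1 array left out comes with fewer arrays as well as with the loss of that array. These cannot be told apart. With the class of 5' signal as a term 2145 genes were called, 1653 of them among the 1713. The fit without the 3 arrays of weak 5' signal, which holds 1 DEGS1 array, called 281, of which 274 were among the 1713, with 159 higher and 122 lower. Against scramble siRNA, 5.31% and 4.63% of genes were called higher and lower in SPTLC123 siRNA (9.94% in all), and 4.66% and 5.04% in DEGS1 siRNA (9.70% in all). The comparisons with scramble share its 3 arrays. Counts within gene lists are small and moved with single arrays. Those arrays are named beside each gene reported here, though not every called member of a list is reported.

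**Figure D2:**
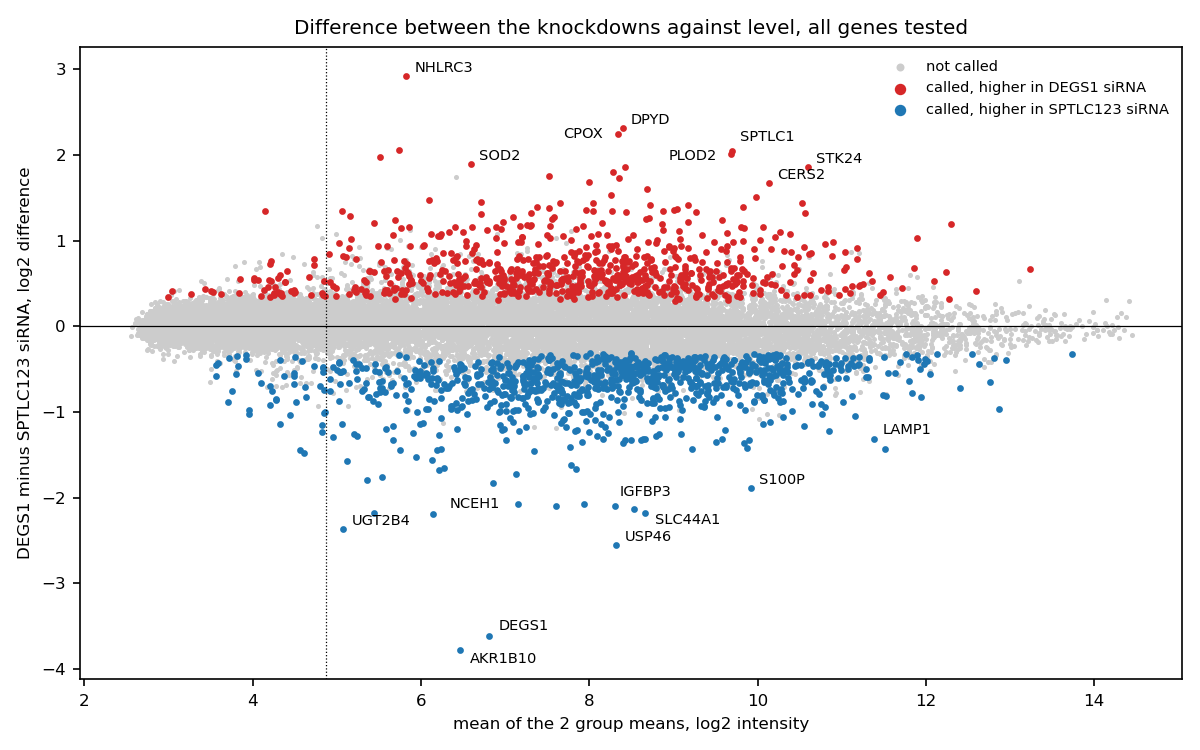
Difference between DEGS1 and SPTLC123 siRNA (log2, vertical) against the mean of the 2 group means (log2 intensity, horizontal) for 19775 genes; 732 genes called higher are red, 981 called lower are blue and the rest are grey. The dotted line is the median of all probe sets (4.87). Beside the targets, AKR1B10 and NHLRC3 lie farthest from 0, at -3.78 and 2.92.

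The 15 largest increases in DEGS1 over SPTLC123 siRNA began with NHLRC3, a protein with NHL repeats, which read 7.17, 7.30 and 7.38 in the DEGS1 arrays, 3.99, 4.43 and 4.67 in the SPTLC123 arrays and 7.09, 7.80 and 7.32 in the scramble arrays. Its DEGS1 and scramble arrays lay in the same range and its SPTLC123 arrays stood below both and below 4.87, so the size of the difference, 2.92 ± 0.19 (adjusted p = 1.17e-05), is uncertain. DPYD, dihydropyrimidine dehydrogenase, the first enzyme of uracil and thymine breakdown, read 9.58, 9.47 and 9.60 in the DEGS1 arrays, 7.09, 7.11 and 7.52 in the SPTLC123 arrays and 9.0, 9.36 and 9.16 in the scramble arrays, a difference of 2.31 ± 0.13 (adjusted p = 4.64e-06). Its 2 other, dimmer probe sets had the opposite sign, and 1 of them was called. CPOX, coproporphyrinogen oxidase of haem synthesis, read 9.91, 9.12 and 9.34 in the DEGS1 arrays, 7.10, 7.46 and 7.08 in the SPTLC123 arrays and 9.94, 10.35 and 10.15 in the scramble arrays, a difference of 2.25 ± 0.19 (adjusted p = 6.06e-05). CPOX was lowest in the SPTLC123 arrays and highest in scramble, and against scramble it differed by -2.93 in SPTLC123 (adjusted p = 7.46e-06) and -0.69 in DEGS1 siRNA (adjusted p = 0.0459).

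PLOD2, which hydroxylates lysines of collagen, read 10.69, 10.68 and 10.70 in the DEGS1 arrays, 8.46, 8.95 and 8.62 in the SPTLC123 arrays and 11.06, 11.45 and 10.88 in the scramble arrays and differed by 2.01 ± 0.15 (adjusted p = 3.43e-05). The manganese superoxide dismutase of mitochondria, SOD2, read 7.45, 7.63 and 7.52 in the DEGS1 arrays, 5.49, 5.65 and 5.79 in the SPTLC123 arrays and 7.33, 8.0 and 7.58 in the scramble arrays and differed by 1.89 ± 0.15 (adjusted p = 4.87e-05). In both genes the SPTLC123 arrays stood apart from the other 6. PDHX, which anchors the last component of the pyruvate dehydrogenase complex, differed by 1.80 ± 0.09 (adjusted p = 3.84e-06), and the mitochondrial transporter ABCB10 by 1.68 ± 0.22 (adjusted p = 0.001). SLC16A7, a monocarboxylate transporter, differed by 1.60 ± 0.37 (adjusted p = 0.0207). The call was lost with 1 array left out for SLC16A7 without DEGS1 replicate 2 or 3 or SPTLC123 replicate 1 or 2 (adjusted p from 0.0809 to 0.0979).

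NBN, a subunit of the complex that senses DNA double-strand breaks, read 8.43, 8.22 and 8.55 in the DEGS1 arrays, 6.62, 6.67 and 6.65 in the SPTLC123 arrays and 8.49, 8.48 and 8.54 in the scramble arrays and differed by 1.76 ± 0.10 (adjusted p = 4.64e-06). DONSON, a factor of the replication fork, differed by 1.73 ± 0.11 (adjusted p = 9.57e-06), and the kinase STK24 by 1.86 ± 0.08 (adjusted p = 1.56e-06). STK24 had the smallest SE of the 15, with 11.51, 11.50 and 11.58 in the DEGS1 arrays, 9.71, 9.65 and 9.65 in the SPTLC123 arrays and 11.57, 11.46 and 11.61 in the scramble arrays. WIPF1, which binds the actin regulator WASP, differed by 2.05 ± 0.17 (adjusted p = 5.34e-05) and FAM98B by 1.86 ± 0.24 (adjusted p = 0.000936). HEPACAM2, a cell adhesion protein, was the exception among the 15 in that it was called on both sides of scramble, at -0.94 in SPTLC123 (adjusted p = 0.0173) and 1.03 in DEGS1 siRNA (adjusted p = 0.0122). It read 6.84, 6.32 and 6.32 in the DEGS1 arrays, 4.71, 4.88 and 3.99 in the SPTLC123 arrays and 5.38, 5.57 and 5.44 in the scramble arrays, a difference of 1.97 ± 0.21 (adjusted p = 0.000282). The SPTLC123 means of HEPACAM2 and WIPF1 lay below 4.87, so these sizes are uncertain. CERS2 completes the 15 and is given with the sphingolipid genes. The values averaged over probe sets were 1.14 for NHLRC3, 0.42 for DPYD, 0.80 for NBN, 0.79 for STK24, 0.91 for WIPF1, 0.89 for FAM98B and 1.04 for SLC16A7, all still called. NHLRC3, DPYD, CPOX, PLOD2, SOD2, PDHX, ABCB10, NBN, DONSON, STK24, WIPF1, FAM98B and HEPACAM2 kept the call when the 3 arrays of weak 5' signal were left out, and SLC16A7 lost it (adjusted p = 0.0916, at 1.08 times the difference over all arrays).

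Among the 15 largest decreases in DEGS1 against SPTLC123 siRNA, SLC44A1, a choline transporter, read 7.81, 7.33 and 7.55 in the DEGS1 arrays, 9.68, 9.74 and 9.82 in the SPTLC123 arrays and 10.11, 10.49 and 10.02 in the scramble arrays and differed by -2.18 ± 0.14 (adjusted p = 1.17e-05). Of its 5 other probe sets 4 had the same sign, 2 of them called, and 1 was called in the opposite direction. NCEH1, which hydrolyses cholesterol esters, read 6.18, 5.97 and 6.20 in the DEGS1 arrays, 8.19, 8.06 and 8.33 in the SPTLC123 arrays and 8.10, 8.23 and 8.08 in the scramble arrays and differed by -2.07 ± 0.10 (adjusted p = 3.51e-06). B3GALNT1, which adds N-acetylgalactosamine to globotriaosylceramide to make globoside, read 6.40, 5.66 and 5.78 in the DEGS1 arrays, 7.87, 7.84 and 7.60 in the SPTLC123 arrays and 7.41, 7.22 and 7.64 in the scramble arrays and differed by -1.83 ± 0.18 (adjusted p = 0.000175). In these 3 genes the DEGS1 arrays stood below the other 6, and against scramble SLC44A1 differed by -0.46 in SPTLC123 (adjusted p = 0.0725) and -2.64 in DEGS1 siRNA (adjusted p = 4.39e-06).

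USP46, a ubiquitin-specific protease, read 7.48, 6.92 and 6.74 in the DEGS1 arrays, 9.87, 9.66 and 9.26 in the SPTLC123 arrays and 9.39, 8.99 and 9.41 in the scramble arrays and differed by -2.55 ± 0.20 (adjusted p = 4.87e-05), and 2 of its 3 other probe sets were called with the same sign. DPY19L1, a C-mannosyltransferase, differed by -2.10 ± 0.15 (adjusted p = 1.50e-05), the calcium-binding S100P by -1.89 ± 0.34 (adjusted p = 0.00617), PHLDA2, the product of an imprinted gene, by -2.18 ± 0.21 (adjusted p = 0.000135) and the neuropeptide precursor NPW by -1.79 ± 0.24 (adjusted p = 0.00109). The DEGS1 means of PHLDA2 and NPW lay below 4.87, so these sizes are uncertain. ARG1, the arginase of the urea cycle, read 5.75, 5.10 and 4.30 in the DEGS1 arrays, 7.31, 7.76 and 6.67 in the SPTLC123 arrays and 7.97, 9.37 and 7.64 in the scramble arrays and differed by -2.19 ± 0.45 (adjusted p = 0.0129). Its SE was the largest of the 15. The call was lost with 1 array left out for ARG1 without DEGS1 replicate 3 or SPTLC123 replicate 1 or 2 (adjusted p from 0.0549 to 0.0618). Averaging of probe sets left no call for ARG1 (-0.49, adjusted p = 0.0801). The averages over probe sets were -1.18 for SLC44A1, -0.77 for DPY19L1 and -0.78 for PHLDA2, all still called. In the fit without arrays of weak 5' signal SLC44A1, NCEH1, B3GALNT1, USP46, DPY19L1, PHLDA2 and NPW passed the test and S100P and ARG1 did not (adjusted p from 0.196 to 0.224, at 0.814 to 0.975 times the difference over all arrays).

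In a further set the SPTLC123 arrays stood above both other groups. IGFBP3, which binds insulin-like growth factors in plasma, read 7.23, 7.22 and 7.33 in the DEGS1 arrays, 9.55, 9.17 and 9.36 in the SPTLC123 arrays and 6.21, 5.56 and 6.13 in the scramble arrays. All 3 groups were separate, with SPTLC123 highest and scramble lowest, and DEGS1 differed from SPTLC123 by -2.10 ± 0.16 (adjusted p = 3.43e-05). MT1M, a metallothionein, differed by -1.76 ± 0.28 (adjusted p = 0.00305) and SERPINA7, the thyroxine-binding globulin, by -1.58 ± 0.20 (adjusted p = 0.000863). Against scramble MT1M differed by 1.98 in SPTLC123 (adjusted p = 0.0013) and 0.21 in DEGS1 siRNA (adjusted p = 0.709). The DEGS1 mean of MT1M and SERPINA7 lay below 4.87. PCK1, the entry enzyme of gluconeogenesis, differed by -1.20 ± 0.21 (adjusted p = 0.00595) with its scramble mean at 5.18. Omission of the arrays of weak 5' signal kept the call of IGFBP3 and SERPINA7 and ended that of MT1M and PCK1 (adjusted p from 0.163 to 0.215, at 0.789 to 0.986 times the difference over all arrays).

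**Figure D3:**
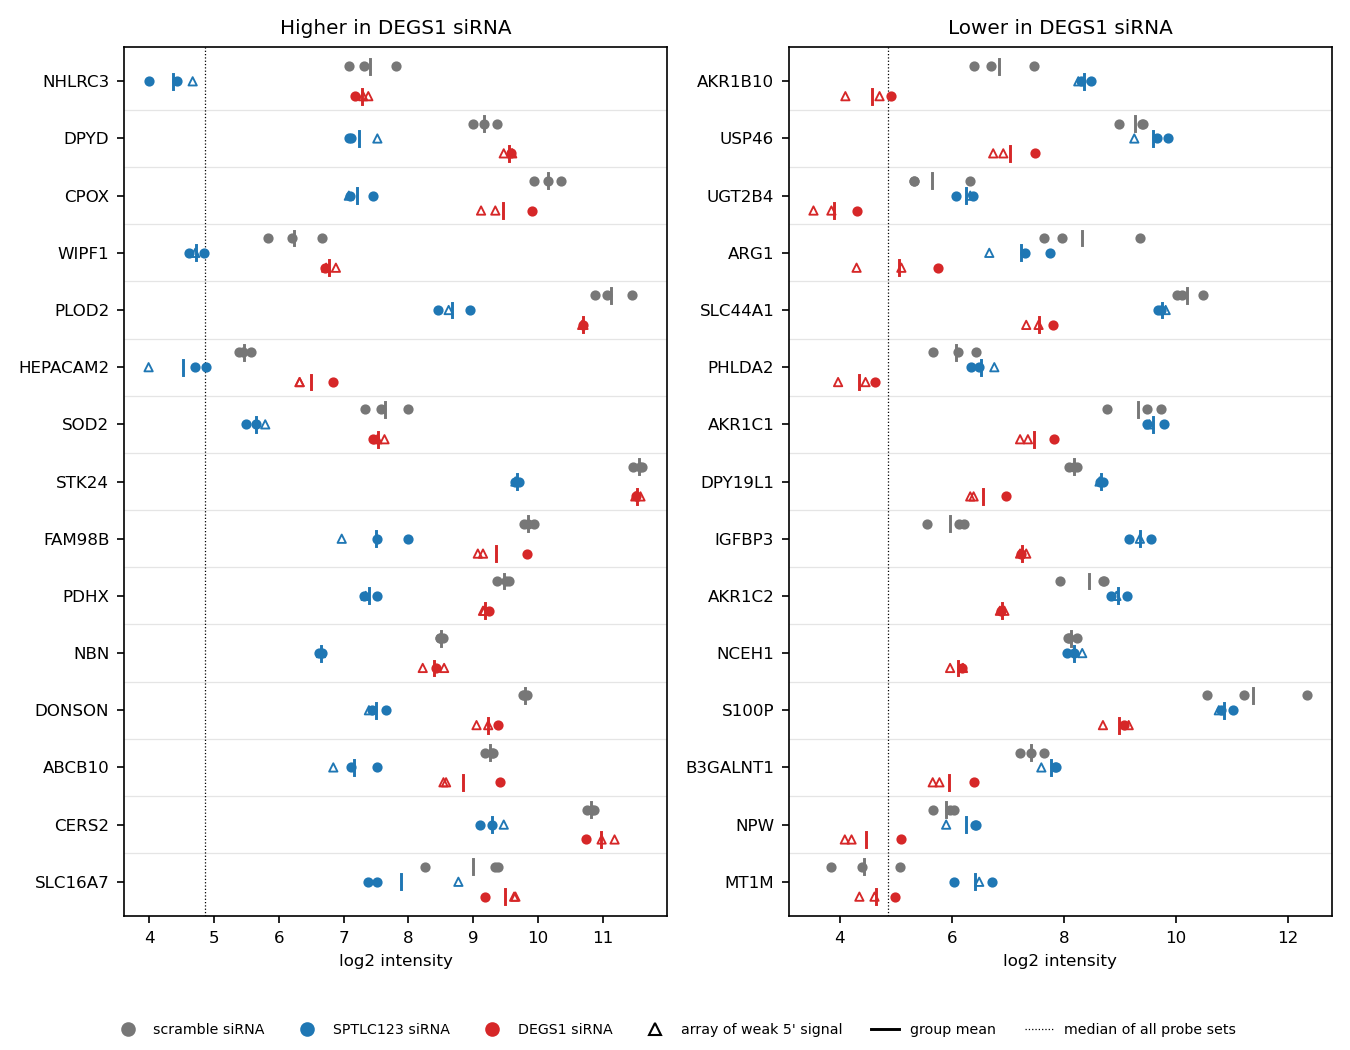
Log2 intensity (horizontal) in each array of the 15 largest increases (left) and 15 largest decreases (right) of DEGS1 against SPTLC123 siRNA, targets left out, with scramble arrays in grey and a bar at each group mean. Open triangles are arrays of weak 5' signal and the dotted line is the median of all probe sets (4.87). In the left panel blue (SPTLC123) stands apart on the low side in all genes but SLC16A7, and in the right panel red (DEGS1) does in all but IGFBP3 and MT1M, whose blue points stand above both other groups. Genes were chosen to have red and blue points that do not overlap, which held in 25.5% of all genes tested.

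Within the pathway itself, the ceramide synthase CERS2 and the glycolipid carrier GLTP had the smallest adjusted p. Of 30 listed genes of sphingolipid synthesis, targets left out, 28 were measured, and 4 were higher and 1 lower in DEGS1 siRNA (14.3% and 3.57%, against 3.70% and 4.96% of all genes, median 0.04), and 2 and 0 without arrays of weak 5' signal. Their median difference was 0.04, against 0.01 over all genes. CERS2, which builds ceramides with very long acyl chains, read 10.74, 10.98 and 11.18 in the DEGS1 arrays, 9.11, 9.29 and 9.47 in the SPTLC123 arrays and 10.86, 10.76 and 10.83 in the scramble arrays. Its SPTLC123 arrays stood below the other 6, and DEGS1 differed from SPTLC123 by 1.68 ± 0.13 (adjusted p = 3.43e-05), a 3.19-fold difference, with 1.54 and 1.61 within the classes of 5' signal. GLTP, which moves glycolipids between membranes, read 8.74, 8.64 and 8.71 in the DEGS1 arrays, 7.70, 7.90 and 7.70 in the SPTLC123 arrays and 8.75, 9.02 and 8.92 in the scramble arrays and differed by 0.93 ± 0.10 (adjusted p = 0.000286). SGMS1, a sphingomyelin synthase of the Golgi, was the one lower, at -0.66 ± 0.13 (adjusted p = 0.01). B4GALT6, a lactosylceramide synthase, differed by 0.41 ± 0.09 (adjusted p = 0.0213) and the ceramide synthase CERS5 by 0.39 ± 0.11 (adjusted p = 0.0432). The single other probe set of CERS5 and 2 of the 3 others of B4GALT6 had the opposite sign. With 1 array left out, no call remained for SGMS1 without SPTLC123 replicate 1 (adjusted p = 0.0535) and B4GALT6 without DEGS1 replicate 2 or 3 or SPTLC123 replicate 1 or 2 (adjusted p from 0.0547 to 0.0891). The same held for CERS5 without DEGS1 replicate 2 or 3 or SPTLC123 replicate 1, 2 or 3 (adjusted p from 0.0759 to 0.17). With probe sets averaged, the call was lost for B4GALT6 (0.14, adjusted p = 0.605) and CERS5 (0.19, adjusted p = 0.284). Without the 3 arrays of weak 5' signal the call held for CERS2 and GLTP and was lost for SGMS1, B4GALT6 and CERS5 (adjusted p from 0.236 to 0.63, at 0.488 to 0.997 times the difference over all arrays).

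The other 23 measured synthesis genes did not pass the test between the knockdowns. The ketosphinganine reductase KDSR differed by -0.03 ± 0.16 (adjusted p = 0.937), the serine palmitoyltransferase brake ORMDL3 by -0.12 ± 0.11 (adjusted p = 0.584) and the ceramide transporter CERT1 by 0.36 ± 0.18 (adjusted p = 0.263). UGCG, which makes glucosylceramide, stood at 9.58 in DEGS1 and 9.59 in SPTLC123 siRNA with scramble at 8.75, and UGT8, which makes galactosylceramide, at 8.30, 8.45 and 7.31. The SE of these differences was 0.20 for UGCG (adjusted p = 0.989) and 0.13 for UGT8 (adjusted p = 0.533). Against scramble UGCG differed by 0.84 in SPTLC123 (adjusted p = 0.024) and 0.83 in DEGS1 siRNA (adjusted p = 0.0269) and UGT8 by 1.14 in SPTLC123 (adjusted p = 0.000302) and 0.98 in DEGS1 siRNA (adjusted p = 0.0011).

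Genes of sphingolipid breakdown and sphingosine 1-phosphate moved in both directions. Of 37 listed genes 28 were measured, and 4 were higher and 5 lower in DEGS1 siRNA (14.3% and 17.9%, against 3.70% and 4.96% of all genes, median 0.04), and 1 and 1 without arrays of weak 5' signal. On the path from sphingosine 1-phosphate, the lyase SGPL1 read 8.81, 8.59 and 8.70 in the DEGS1 arrays, 7.93, 7.96 and 7.87 in the SPTLC123 arrays and 8.68, 8.63 and 8.72 in the scramble arrays and differed by 0.78 ± 0.09 (adjusted p = 0.000394), whereas the phosphatase SGPP1, which returns sphingosine 1-phosphate to sphingosine, read 5.17, 5.12 and 5.08 in the DEGS1 arrays, 5.92, 5.95 and 5.81 in the SPTLC123 arrays and 6.27, 6.54 and 6.40 in the scramble arrays and differed by -0.77 ± 0.09 (adjusted p = 0.000652). The SPTLC123 arrays of SGPL1 lay below both other groups, and the DEGS1 arrays of SGPP1 did. PLPP3, a lipid phosphatase of the cell surface, differed by 1.11 ± 0.16 (adjusted p = 0.00172) and the sphingosine kinase SPHK1 by -1.02 ± 0.21 (adjusted p = 0.0114). Among lysosomal hydrolases, acid sphingomyelinase SMPD1 differed by -0.55 ± 0.09 (adjusted p = 0.00331), galactosylceramidase GALC by -1.02 ± 0.21 (adjusted p = 0.0111) and NAAA, an acid amidase related to acid ceramidase, by -0.51 ± 0.14 (adjusted p = 0.0438). Arylsulfatase A, ARSA, differed by 0.51 ± 0.09 (adjusted p = 0.00408) and the ganglioside activator GM2A by 0.41 ± 0.10 (adjusted p = 0.0339). Leaving out single arrays ended the call of SPHK1 without SPTLC123 replicate 1 or 2 (adjusted p from 0.0527 to 0.06) and GALC without DEGS1 replicate 2 or SPTLC123 replicate 1 or 2 (adjusted p from 0.0508 to 0.0556). The same held for NAAA without DEGS1 replicate 2 or 3 or SPTLC123 replicate 1 or 2 (adjusted p from 0.129 to 0.164) and GM2A without DEGS1 replicate 2 or 3 or SPTLC123 replicate 1 or 3 (adjusted p from 0.0863 to 0.125). After averaging of probe sets, the call was lost for GALC (-1.37, adjusted p = 0.133) and GM2A (0.11, adjusted p = 0.551). The averages over probe sets were 0.47 for SGPL1 and -0.34 for SMPD1, all still called. SGPL1 and SPHK1 kept the call when the 3 arrays of weak 5' signal were left out, and SGPP1, PLPP3, SMPD1, GALC, NAAA, ARSA and GM2A lost it (adjusted p from 0.0524 to 0.468, at 0.539 to 1.14 times the difference over all arrays).

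Of the 26 lists, the one of carbonyl-reducing and glucuronide-forming enzymes had the highest share of called members. Aldo-keto reductases reduce aldehydes and ketones, including products of lipid peroxidation, and UDP-glucuronosyltransferases attach glucuronic acid to steroids, bile acids and drugs. Of 24 listed genes 17 were measured, 0 were higher (also 0 at an unadjusted p under 0.05 in limma) and 9 lower in DEGS1 siRNA (52.9%, against 4.96% of all genes), with a median of -0.88 against 0.01. The counts were 0 higher and 9 lower with the class of 5' signal as a term, and 0 and 7 without the 3 arrays, and 8 or 9 when single arrays were left out. Within the classes of 5' signal the median over the 17 was -0.83 and -0.59. Of the 17, 11 had a mean above 4.87 in DEGS1 or SPTLC123 siRNA. Several are close paralogs whose probe sets can share signal, so the count and median may not stand for separate genes. Earlier results of these data were known when the list was drawn up, so its direction is not independent evidence.

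AKR1B10, which reduces retinal and reactive aldehydes, read 4.91, 4.10 and 4.71 in the DEGS1 arrays, 8.49, 8.31 and 8.26 in the SPTLC123 arrays and 6.70, 6.40 and 7.46 in the scramble arrays. The 3 groups were separate, with SPTLC123 above and DEGS1 below scramble, at 1.50 in SPTLC123 (adjusted p = 0.00386) and -2.28 in DEGS1 siRNA (adjusted p = 0.000452). The knockdowns differed by -3.78 ± 0.26 (adjusted p = 1.17e-05), a 13.8-fold difference and the largest of all genes tested, with -3.49 and -3.86 within the classes of 5' signal, though the DEGS1 mean lay below 4.87. AKR1C1, which inactivates progesterone, read 7.83, 7.36 and 7.22 in the DEGS1 arrays, 9.48, 9.79 and 9.53 in the SPTLC123 arrays and 8.78, 9.74 and 9.48 in the scramble arrays and differed by -2.13 ± 0.23 (adjusted p = 0.000256). AKR1C2, which reduces dihydrotestosterone, read 6.88, 6.94 and 6.86 in the DEGS1 arrays, 8.84, 9.13 and 8.94 in the SPTLC123 arrays and 7.94, 8.72 and 8.71 in the scramble arrays and differed by -2.08 ± 0.18 (adjusted p = 7.15e-05). In both genes the DEGS1 arrays stood below the other 6. AKR1C3 differed by -0.98 ± 0.20 (adjusted p = 0.0132) from means that all lay below 4.87. Probe sets of these close paralogs can share signal, and of the 4 other AKR1C1 probe sets 2 had the same sign and 1 was called. The call was lost with 1 array left out for AKR1C3 without DEGS1 replicate 2 or SPTLC123 replicate 1 or 2 (adjusted p from 0.0621 to 0.0645).

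On the glucuronide side, UGDH, which makes the UDP-glucuronic acid that all these transferases use, read 10.56, 10.51 and 10.67 in the DEGS1 arrays, 11.41, 11.37 and 11.59 in the SPTLC123 arrays and 10.73, 10.73 and 10.86 in the scramble arrays. Its SPTLC123 arrays stood above the other 6, and DEGS1 differed from SPTLC123 by -0.88 ± 0.10 (adjusted p = 0.000298). UGT2B4, which conjugates bile acids, read 4.30, 3.53 and 3.85 in the DEGS1 arrays, 6.07, 6.38 and 6.33 in the SPTLC123 arrays and 5.32, 6.32 and 5.32 in the scramble arrays and differed by -2.37 ± 0.26 (adjusted p = 0.000304). Here the DEGS1 arrays stood below the other 6 and below 4.87. UGT2B28 differed by -1.56 ± 0.17 (adjusted p = 0.000263), UGT2B15 by -0.997 ± 0.11 (adjusted p = 0.000347) and UGT2A3 by -0.89 ± 0.15 (adjusted p = 0.00363). The means of UGT2A3 all lay below 4.87, as did the DEGS1 and scramble means of UGT2B15. UGT2B28 was called against scramble in both knockdowns and in opposite directions, at 0.96 in SPTLC123 (adjusted p = 0.00451) and -0.61 in DEGS1 siRNA (adjusted p = 0.0437). The UGT2B genes are also close paralogs, so their single values are uncertain. The 8 members not called lay between -0.35 for AKR1D1, a bile acid enzyme, and 0.20 for AKR7A2. Averaging over probe sets gave -0.72 for AKR1C1 and -0.46 for UGT2B15, all still called. In the fit without arrays of weak 5' signal AKR1B10, AKR1C1, AKR1C2, AKR1C3, UGDH, UGT2B28 and UGT2B15 passed the test and UGT2B4 and UGT2A3 did not (adjusted p from 0.0552 to 0.174, at 0.814 to 0.931 times the difference over all arrays).

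NRF2 is a transcription factor that KEAP1 holds in check and that drives glutathione synthesis and NADPH supply through antioxidant response elements. Of 35 listed genes 33 were measured, and 1 was higher and 9 lower in DEGS1 siRNA (3.03% and 27.3%, against 3.70% and 4.96%), with a median of -0.23 against 0.01. The counts were 1 higher and 10 lower with the class of 5' signal as a term, and 0 and 3 without the 3 arrays. With single arrays left out, 5 were lower without DEGS1 replicate 3 or SPTLC123 replicate 1, 6 without DEGS1 replicate 2 or SPTLC123 replicate 2, and 12 without DEGS1 replicate 1. GCLC, the catalytic subunit of the rate-limiting enzyme of glutathione synthesis, read 9.31, 8.75 and 8.92 in the DEGS1 arrays, 10.24, 10.03 and 9.88 in the SPTLC123 arrays and 9.76, 9.54 and 9.65 in the scramble arrays and differed by -1.06 ± 0.15 (adjusted p = 0.00128). Its partner subunit GCLM differed by -0.77 ± 0.18 (adjusted p = 0.0258) and SLC7A11, which imports cystine for the same path, by -0.89 ± 0.24 (adjusted p = 0.0421). ME1, the NADPH-forming malic enzyme, read 10.13, 10.22 and 10.42 in the DEGS1 arrays, 11.19, 11.14 and 11.52 in the SPTLC123 arrays and 10.61, 10.67 and 10.82 in the scramble arrays. Its groups were separate in the order SPTLC123, scramble, DEGS1, and the knockdowns differed by -1.03 ± 0.12 (adjusted p = 0.000563).

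NQO1, the quinone reductase, read 11.81, 11.35 and 11.43 in the DEGS1 arrays, 12.41, 12.47 and 12.17 in the SPTLC123 arrays and 12.05, 12.22 and 12.26 in the scramble arrays and differed by -0.82 ± 0.13 (adjusted p = 0.00331). The glutathione peroxidase GPX2 read 10.48, 10.04 and 10.48 in the DEGS1 arrays, 11.26, 11.30 and 11.27 in the SPTLC123 arrays and 9.86, 9.98 and 10.44 in the scramble arrays and differed by -0.94 ± 0.16 (adjusted p = 0.00418). The difference lay on the DEGS1 side in NQO1, where those arrays were below the other 6, and on the SPTLC123 side in GPX2, where those arrays were above the other 6. GSTA1, a glutathione transferase, differed by -1.12 ± 0.20 (adjusted p = 0.00566), the carbonyl reductase CBR1 by -0.66 ± 0.14 (adjusted p = 0.0157) and OSGIN1 by -0.59 ± 0.13 (adjusted p = 0.0159). The single other probe set of GSTA1 had the opposite sign. KEAP1 was the one higher, at 0.47 ± 0.11 (adjusted p = 0.0195). The call was lost with 1 array left out for GCLM without DEGS1 replicate 2 or 3 or SPTLC123 replicate 1 (adjusted p from 0.104 to 0.12) and SLC7A11 without DEGS1 replicate 1 or 3 or SPTLC123 replicate 1, 2 or 3 (adjusted p from 0.0516 to 0.165). It was lost also for CBR1 without DEGS1 replicate 2 or 3 or SPTLC123 replicate 1 or 2 (adjusted p from 0.0644 to 0.0733) and OSGIN1 without DEGS1 replicate 2 or 3 or SPTLC123 replicate 1 or 2 (adjusted p from 0.0615 to 0.0786). The same held for KEAP1 without DEGS1 replicate 2 or 3 or SPTLC123 replicate 1 or 2 (adjusted p from 0.0651 to 0.0883). On the mean of probe sets the call was lost for GCLM (-0.29, adjusted p = 0.196) and GSTA1 (-0.35, adjusted p = 0.0835). The values averaged over probe sets were -0.61 for GCLC and -0.58 for GPX2, all still called. Omission of the arrays of weak 5' signal kept the call of GCLC, ME1 and GSTA1 and ended that of GCLM, SLC7A11, NQO1, GPX2, CBR1, OSGIN1 and KEAP1 (adjusted p from 0.0791 to 0.529, at 0.423 to 0.985 times the difference over all arrays).

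**Figure D4:**
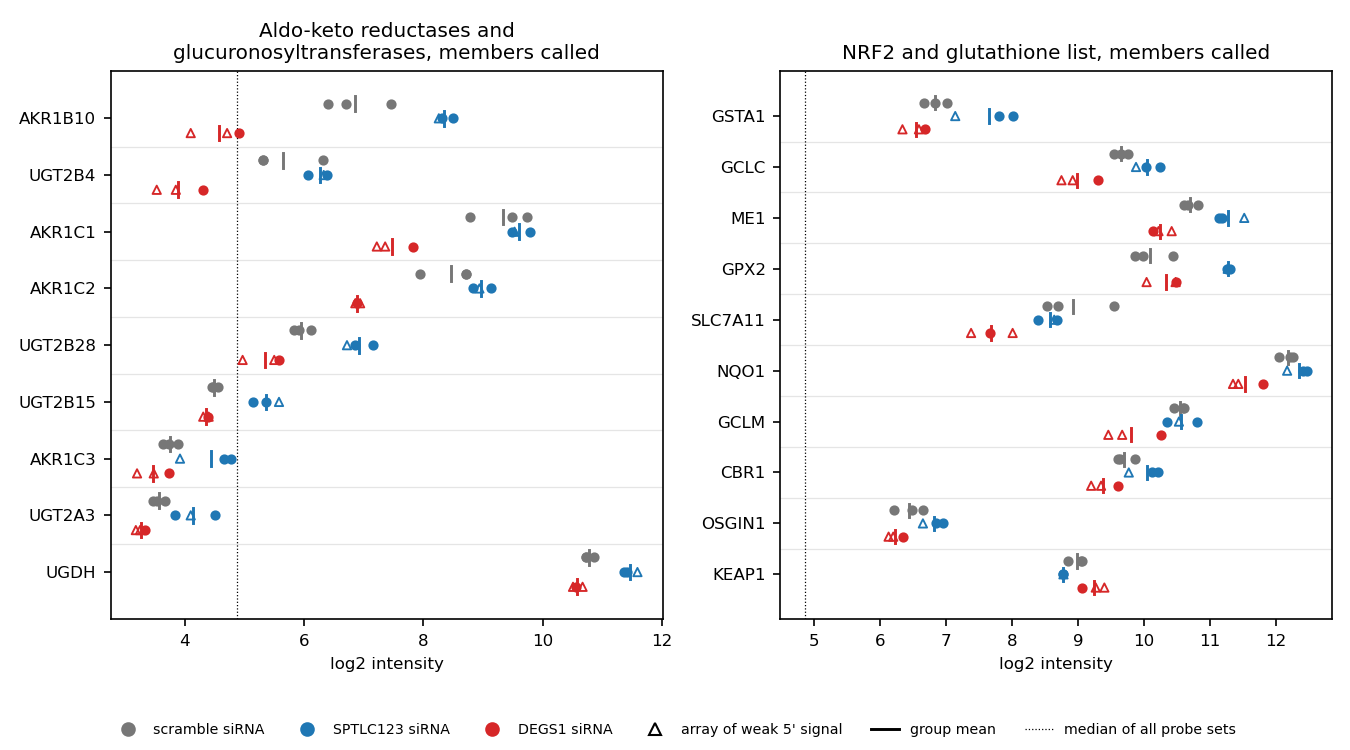
Log2 intensity (horizontal) in each array of the 9 called aldo-keto reductase and glucuronosyltransferase genes (left) and the 10 called genes of the NRF2 and glutathione list (right). Colours, triangles, bars and the dotted line at 4.87 mark groups, arrays of weak 5' signal, group means and the median of all probe sets. In every gene but KEAP1 the red DEGS1 points lie left of the blue SPTLC123 points. Genes were shown because they were called between these groups, so this separation follows from the choice. Red and blue points did not overlap in 10 of the 17 and 19 of the 33 measured members, and in 25.5% of all genes tested.

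As 9 genes of the NRF2 list were lower together, the 250 bases before their RefSeq gene starts (GRCh38.p14) were searched for the core of the antioxidant response element, TGACNNNGC, on both strands. It was found for 4 of the 8 genes called lower that had a sequence, and for 10 of the 26 measured members with one. Over all genes it was found for 3609 of 27305 (13.2%), and in 10.9% of all 35116 windows of this length. KEAP1, called higher, was among the 10. The list was drawn up around NRF2, so these shares cannot show why members were lower, which was not tested. Of the 4 amino acid response genes called lower, given next, 2 held the antioxidant core. The C/EBP-ATF response element was searched only as TGATGNAAT, so variants with another last base were not counted. This pattern was in 0 of those 4 and in 1 of 30 measured members of the amino acid response list with a sequence, against 1.09% of genes. Of the aldo-keto reductase and glucuronosyltransferase genes called lower, 0 of the 6 with a sequence held the antioxidant core and 0 held the C/EBP-ATF pattern. The antioxidant core was in 2 of the 13 measured members of that list with a sequence (15.4%). Only the 250 bases before the gene start were searched, so a gene without a match may hold either element elsewhere. The 4 promoters with the antioxidant core among the lower genes of the NRF2 list are written 5′ to 3′ on the strand of the gene. The match is in capitals. It lies on the gene's strand in ME1 and on the opposite strand in the others.
ME1, chr6:83431052-83431301, minus strand: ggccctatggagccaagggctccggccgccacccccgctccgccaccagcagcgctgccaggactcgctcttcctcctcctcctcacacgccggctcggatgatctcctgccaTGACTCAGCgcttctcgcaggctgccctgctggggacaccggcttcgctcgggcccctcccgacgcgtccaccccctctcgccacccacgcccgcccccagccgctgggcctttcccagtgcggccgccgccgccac
GCLM, chr1:93909431-93909680, minus strand: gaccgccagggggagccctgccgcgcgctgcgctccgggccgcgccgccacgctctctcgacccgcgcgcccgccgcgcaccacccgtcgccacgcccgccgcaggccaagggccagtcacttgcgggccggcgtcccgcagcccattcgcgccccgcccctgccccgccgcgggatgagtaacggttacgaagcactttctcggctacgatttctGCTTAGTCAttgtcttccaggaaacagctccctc
GPX2, chr14:64942746-64942995, minus strand: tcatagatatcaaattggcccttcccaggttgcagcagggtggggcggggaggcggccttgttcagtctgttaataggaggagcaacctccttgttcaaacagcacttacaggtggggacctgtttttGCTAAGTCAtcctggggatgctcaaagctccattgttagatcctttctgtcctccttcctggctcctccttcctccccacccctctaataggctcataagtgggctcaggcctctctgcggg
CBR1, chr21:36069774-36070023, plus strand: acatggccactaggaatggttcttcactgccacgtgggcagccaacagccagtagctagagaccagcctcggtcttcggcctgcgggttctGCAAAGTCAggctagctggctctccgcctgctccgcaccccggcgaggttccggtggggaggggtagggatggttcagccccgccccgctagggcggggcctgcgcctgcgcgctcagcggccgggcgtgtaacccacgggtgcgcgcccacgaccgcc
The matches start 137 bases before the gene start in ME1, 34 in GCLM, 122 in GPX2 and 159 in CBR1. A match describes the letters and is not a measured binding site.

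ATF4 raises genes of amino acid uptake and synthesis when amino acids are short or unfolded proteins build up. Of 38 listed genes 36 were measured, and 1 was higher and 4 lower in DEGS1 siRNA (2.78% and 11.1%, against 3.70% and 4.96% of all genes, median -0.14), and 1 and 1 without arrays of weak 5' signal. All 4 genes that were lower serve amino acid uptake or one-carbon supply. SLC7A5 and SLC3A2, the chains of the large neutral amino acid transporter, differed by -0.91 ± 0.15 (adjusted p = 0.00408) and -0.66 ± 0.09 (adjusted p = 0.00115), with SLC3A2 at 9.24, 9.11 and 9.12 in the DEGS1 arrays, 9.86, 9.74 and 9.85 in the SPTLC123 arrays and 9.79, 9.91 and 9.95 in the scramble arrays. The cationic amino acid transporter SLC7A1 differed by -0.73 ± 0.17 (adjusted p = 0.0201). MTHFD2, of mitochondrial folate metabolism, read 10.35, 10.24 and 10.11 in the DEGS1 arrays, 11.49, 11.42 and 11.47 in the SPTLC123 arrays and 11.37, 12.13 and 11.87 in the scramble arrays. Its DEGS1 arrays stood below the other 6, a difference of -1.23 ± 0.16 (adjusted p = 0.000912). The oxidase ERO1A, which forms disulfides in the endoplasmic reticulum, was higher at 0.80 ± 0.09 (adjusted p = 0.000504). Asparagine synthetase ASNS differed by -0.49 ± 0.33 (adjusted p = 0.42) and ATF4 itself by -0.03 ± 0.16 (adjusted p = 0.931). Against scramble the median of the list was -0.40 in SPTLC123 and -0.40 in DEGS1 siRNA. Of the 36 members, 4 were called lower than scramble in SPTLC123 and 14 in DEGS1 siRNA, against 4.63% and 5.04% of all genes, and 0 were called higher in either. With 1 array left out, no call remained for SLC7A1 without DEGS1 replicate 2 or 3 (adjusted p from 0.0621 to 0.0792). With probe sets averaged, the call was lost for ERO1A (0.32, adjusted p = 0.334). The average over probe sets was -0.43 for SLC7A1, still called. Without the 3 arrays of weak 5' signal the call held for SLC7A5 and ERO1A and was lost for SLC3A2, SLC7A1 and MTHFD2 (adjusted p from 0.0981 to 0.307, at 0.735 to 0.898 times the difference over all arrays).

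Of 25 measured genes of protein folding in the endoplasmic reticulum 1 was higher and 2 lower in DEGS1 siRNA (4% and 8%, against 3.70% and 4.96% of all genes, median 0.01), and 0 and 0 without arrays of weak 5' signal. These shares were near those of all genes. DNAJB9, a co-chaperone of BiP, read 9.40, 8.75 and 8.87 in the DEGS1 arrays, 10.23, 10.11 and 10.32 in the SPTLC123 arrays and 9.75, 10.04 and 10.23 in the scramble arrays, with the DEGS1 arrays below the other 6, and differed by -1.21 ± 0.17 (adjusted p = 0.00136). XBP1 differed by -0.47 ± 0.13 (adjusted p = 0.0423) and the liver factor CREB3L3 by 0.49 ± 0.10 (adjusted p = 0.0133), while BiP itself, HSPA5, differed by -0.24 ± 0.09 (adjusted p = 0.143). With the mean of its 2 probe sets XBP1 turned to 0.06 (adjusted p = 0.875). Leaving out single arrays ended the call of XBP1 without DEGS1 replicate 2 or 3 or SPTLC123 replicate 1, 2 or 3 (adjusted p from 0.0534 to 0.159) and CREB3L3 without DEGS1 replicate 2 or SPTLC123 replicate 1 (adjusted p from 0.0591 to 0.0638). DNAJB9, XBP1 and CREB3L3 lost the call when the 3 arrays of weak 5' signal were left out (adjusted p from 0.117 to 0.365, at 0.637 to 1.21 times the difference over all arrays).

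Some genes of lipid transport and storage were called between the knockdowns, in both directions. Of 25 measured genes of lipoproteins and cholesterol efflux 4 were higher and 3 lower in DEGS1 siRNA (16% and 12%, against 3.70% and 4.96% of all genes, median 0.15), and 0 and 0 without arrays of weak 5' signal. APOC3, an inhibitor of lipoprotein lipase, read 10.21, 10.33 and 10.43 in the DEGS1 arrays, 9.27, 9.51 and 9.19 in the SPTLC123 arrays and 10.51, 10.93 and 10.37 in the scramble arrays, with the SPTLC123 arrays below the other 6, and differed by 1.0 ± 0.14 (adjusted p = 0.00164). APOA1, the main protein of high-density lipoprotein, differed by 0.67 ± 0.09 (adjusted p = 0.00132). The sterol acyltransferases moved in opposite directions, SOAT1 at -0.72 ± 0.11 (adjusted p = 0.00306) and SOAT2 at 0.62 ± 0.12 (adjusted p = 0.00784). Of 24 measured genes of cholesterol synthesis and uptake 1 was higher and 0 lower in DEGS1 siRNA (4.17% and 0%, median 0.01, 3 lower at an unadjusted p under 0.05 in limma), and 0 and 0 without arrays of weak 5' signal. The one was the sterol reductase TM7SF2 at 0.60 ± 0.13 (adjusted p = 0.0176). The share of the cholesterol list called higher was near the 3.70% of all genes. HMGCS1, the synthase that feeds the path, differed by 0.45 ± 0.17 (adjusted p = 0.13). The call was lost with 1 array left out for TM7SF2 without DEGS1 replicate 2 or SPTLC123 replicate 1 (adjusted p from 0.06 to 0.0815). The value averaged over probe sets was 0.59 for APOC3, still called. In the fit without arrays of weak 5' signal APOC3, APOA1, SOAT1, SOAT2 and TM7SF2 did not pass the test (adjusted p from 0.126 to 0.275, at 0.715 to 0.996 times the difference over all arrays).

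Of 34 measured genes of fatty acid and triglyceride synthesis and lipid droplets 3 were higher and 6 lower in DEGS1 siRNA (8.82% and 17.6%, against 3.70% and 4.96% of all genes, median 0.0013), and 0 and 0 without arrays of weak 5' signal. The lipid droplet proteins CIDEC and CIDEB differed by -0.80 ± 0.12 (adjusted p = 0.00198) and 0.58 ± 0.10 (adjusted p = 0.00566). MGLL, which splits monoglycerides, differed by -0.60 ± 0.10 (adjusted p = 0.00353) and the acyl-CoA synthetase ACSL1 by -0.64 ± 0.12 (adjusted p = 0.00675). Among 29 genes of fatty acid oxidation 1 was higher and 2 lower in DEGS1 siRNA (3.45% and 6.9%, median -0.04), and 0 and 0 without arrays of weak 5' signal, with CPT1A, which admits fatty acids to mitochondria, at -0.61 ± 0.10 (adjusted p = 0.00413) and the nuclear receptor PPARA at -0.78 ± 0.16 (adjusted p = 0.0114). The shares of this list were near those of all genes. CPT1A stood above scramble in SPTLC123, and against scramble it differed by 0.88 in SPTLC123 (adjusted p = 0.000357) and 0.27 in DEGS1 siRNA (adjusted p = 0.126). Of 31 genes of glycerophospholipid synthesis and choline uptake 2 were higher and 3 lower in DEGS1 siRNA (6.45% and 9.68%, median -0.14), and 1 and 2 without arrays of weak 5' signal. Beside SLC44A1, the related SLC44A3 was higher at 0.94 ± 0.12 (adjusted p = 0.000968). CHPT1, which completes phosphatidylcholine, differed by -0.60 ± 0.11 (adjusted p = 0.00567) and PCYT2, of phosphatidylethanolamine synthesis, by 0.52 ± 0.11 (adjusted p = 0.0145). With the mean of its 3 probe sets CHPT1 turned to 0.03 (adjusted p = 0.932). The call was lost with 1 array left out for PPARA without DEGS1 replicate 2 or SPTLC123 replicate 2 (adjusted p from 0.0529 to 0.0555) and PCYT2 without DEGS1 replicate 2 or 3 or SPTLC123 replicate 1 or 2 (adjusted p from 0.0535 to 0.0716). On the mean of probe sets the call was lost for CPT1A (-0.29, adjusted p = 0.103). The averages over probe sets were -0.47 for PPARA and 0.34 for PCYT2, all still called. Omission of the arrays of weak 5' signal kept the call of SLC44A3 and ended that of CIDEC, CIDEB, MGLL, ACSL1, CPT1A, PPARA, CHPT1 and PCYT2 (adjusted p from 0.0885 to 0.407, at 0.518 to 1.04 times the difference over all arrays).

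Of 39 measured genes of hepatocyte identity 3 were higher and 2 lower in DEGS1 siRNA (7.69% and 5.13%, against 3.70% and 4.96% of all genes, median 0.11), and 1 and 1 without arrays of weak 5' signal. The fibrinogen chain FGB differed by 0.79 ± 0.15 (adjusted p = 0.00862), coagulation factor V, F5, by 0.98 ± 0.20 (adjusted p = 0.0133) and the acute-phase protein ORM1 by -0.79 ± 0.10 (adjusted p = 0.000772), while albumin differed by 0.02 ± 0.08 (adjusted p = 0.926). Of 31 genes of the urea cycle, tryptophan and one-carbon metabolism 1 was higher and 3 lower in DEGS1 siRNA (3.23% and 9.68%, median 0.0004), and 0 and 0 without arrays of weak 5' signal. TDO2, which opens the tryptophan ring, differed by -1.43 ± 0.32 (adjusted p = 0.0186), NAGS, whose product switches on the urea cycle, by -0.96 ± 0.25 (adjusted p = 0.0351) and the proline oxidase PRODH by 0.33 ± 0.08 (adjusted p = 0.0315). Of 38 genes of hypoxia and glycolysis 5 were higher and 0 lower in DEGS1 siRNA (13.2% and 0%, median 0.08, 1 lower at an unadjusted p under 0.05 in limma), and 1 and 0 without arrays of weak 5' signal. Beside PLOD2, these included the phosphofructokinase PFKL at 0.57 ± 0.09 (adjusted p = 0.00292), EPAS1, the hypoxia-inducible factor 2 alpha, at 0.47 ± 0.09 (adjusted p = 0.00736) and the peptide adrenomedullin, ADM, at 0.53 ± 0.12 (adjusted p = 0.0189). EPAS1 was lowest in the SPTLC123 arrays, at 11.04, 10.97 and 10.90 against 11.54, 11.42 and 11.35 in DEGS1 siRNA. With 1 array left out, no call remained for F5 without DEGS1 replicate 2 or SPTLC123 replicate 1 or 2 (adjusted p from 0.0622 to 0.0686) and TDO2 without DEGS1 replicate 2 or 3 or SPTLC123 replicate 1 or 2 (adjusted p from 0.0778 to 0.088). It was lost also for NAGS without DEGS1 replicate 2 or 3 or SPTLC123 replicate 1 or 2 (adjusted p from 0.117 to 0.132) and PRODH without DEGS1 replicate 2 or 3 or SPTLC123 replicate 1, 2 or 3 (adjusted p from 0.0505 to 0.117). The same held for ADM without DEGS1 replicate 2 or SPTLC123 replicate 2 (adjusted p from 0.0712 to 0.0854). With probe sets averaged, the call was lost for FGB (0.40, adjusted p = 0.369), NAGS (-0.96, adjusted p = 0.0514) and EPAS1 (0.14, adjusted p = 0.659). Averaging over probe sets gave -0.68 for TDO2, still called. Without the 3 arrays of weak 5' signal the call held for F5 and was lost for FGB, ORM1, TDO2, NAGS, PRODH, PFKL, EPAS1 and ADM (adjusted p from 0.0508 to 0.444, at 0.572 to 1.15 times the difference over all arrays).

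Receptors of growth factors and Wnt ligands differed in both directions. Of 37 measured genes 5 were higher and 6 lower in DEGS1 siRNA (13.5% and 16.2%, against 3.70% and 4.96% of all genes, median -0.05), and 2 and 1 without arrays of weak 5' signal. ERBB3, a receptor of neuregulins, read 10.41, 10.85 and 10.66 in the DEGS1 arrays, 9.34, 9.39 and 9.70 in the SPTLC123 arrays and 10.03, 9.97 and 9.65 in the scramble arrays and differed by 1.16 ± 0.15 (adjusted p = 0.000718), and its dimer partner ERBB2 differed by 0.81 ± 0.11 (adjusted p = 0.00145). Of the Wnt receptors FZD5 differed by 0.93 ± 0.11 (adjusted p = 0.000632) and FZD6 by -0.83 ± 0.10 (adjusted p = 0.000718). FZD5 stood above scramble in both knockdowns and FZD6 lay on both sides of it, at 0.37 in SPTLC123 (adjusted p = 0.0453) and -0.46 in DEGS1 siRNA (adjusted p = 0.0199). The hepatocyte growth factor receptor MET stood at 10.93 in DEGS1 and 11.13 in SPTLC123 siRNA, a difference of -0.21 ± 0.09 (adjusted p = 0.225). Among 35 genes of gluconeogenesis, insulin and IGF signalling 2 were higher and 2 lower in DEGS1 siRNA (5.71% and 5.71%, median 0.03), and 0 and 1 without arrays of weak 5' signal. The last shares were near those of all genes. With IGFBP3 and PCK1 lower, the insulin receptor INSR differed by 0.54 ± 0.15 (adjusted p = 0.0452) and FOXO3, a transcription factor that AKT restrains, by 0.46 ± 0.10 (adjusted p = 0.0159). Leaving out single arrays ended the call of INSR without DEGS1 replicate 2 or 3 or SPTLC123 replicate 1 or 2 (adjusted p from 0.0938 to 0.182) and FOXO3 without DEGS1 replicate 2 or SPTLC123 replicate 2 (adjusted p from 0.0683 to 0.0781). After averaging of probe sets, the call was lost for ERBB2 (0.26, adjusted p = 0.363) and INSR (0.33, adjusted p = 0.0536). The value averaged over probe sets was 0.54 for ERBB3, still called. ERBB3 and FZD6 kept the call when the 3 arrays of weak 5' signal were left out, and ERBB2, FZD5, INSR and FOXO3 lost it (adjusted p from 0.0527 to 0.426, at 0.623 to 1.04 times the difference over all arrays).

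Of 44 measured genes of matrix, adhesion and cytoskeleton 5 were higher and 2 lower in DEGS1 siRNA (11.4% and 4.55%, against 3.70% and 4.96% of all genes, median 0.03), and 2 and 0 without arrays of weak 5' signal. NTN4, a netrin of basement membranes, read 6.19, 5.90 and 6.05 in the DEGS1 arrays, 4.79, 4.78 and 4.95 in the SPTLC123 arrays and 3.77, 4.22 and 4.38 in the scramble arrays. Its groups were separate in the order scramble, SPTLC123, DEGS1, and the knockdowns differed by 1.21 ± 0.15 (adjusted p = 0.00062), though the scramble and SPTLC123 means lay below 4.87. The proteoglycan versican, VCAN, differed by 0.95 ± 0.19 (adjusted p = 0.0101), E-cadherin, CDH1, by 0.66 ± 0.12 (adjusted p = 0.00635) and the integrin ITGA2 by -1.20 ± 0.24 (adjusted p = 0.00954). Of 29 genes of lysosome and autophagy 2 were higher and 2 lower in DEGS1 siRNA (6.9% and 6.9%, median -0.13), and 1 and 1 without arrays of weak 5' signal. Both shares of the lysosome list were near those of all genes. LAMP1, the main glycoprotein of the lysosome membrane, read 10.76, 10.67 and 10.77 in the DEGS1 arrays, 11.93, 12.01 and 12.19 in the SPTLC123 arrays and 11.93, 11.53 and 11.83 in the scramble arrays. Its DEGS1 arrays stood below the other 6, a difference of -1.31 ± 0.12 (adjusted p = 7.92e-05). The proton pump subunit ATP6V1H differed by -0.84 ± 0.16 (adjusted p = 0.00734), with both of its other, dim probe sets of the opposite sign, and the proteases TPP1 and CTSH by 0.56 ± 0.11 (adjusted p = 0.00756) and 0.34 ± 0.09 (adjusted p = 0.0398). The call was lost with 1 array left out for CTSH without DEGS1 replicate 2 or 3 or SPTLC123 replicate 1, 2 or 3 (adjusted p from 0.073 to 0.144). Averaging of probe sets left no call for VCAN (0.67, adjusted p = 0.0699), CDH1 (0.07, adjusted p = 0.936), ATP6V1H (-0.23, adjusted p = 0.0721) and TPP1 (0.28, adjusted p = 0.159). The average over probe sets was -0.75 for ITGA2, still called. In the fit without arrays of weak 5' signal NTN4, VCAN, LAMP1 and TPP1 passed the test and CDH1, ITGA2, ATP6V1H and CTSH did not (adjusted p from 0.0798 to 0.456, at 0.564 to 1.03 times the difference over all arrays).

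**Figure D5:**
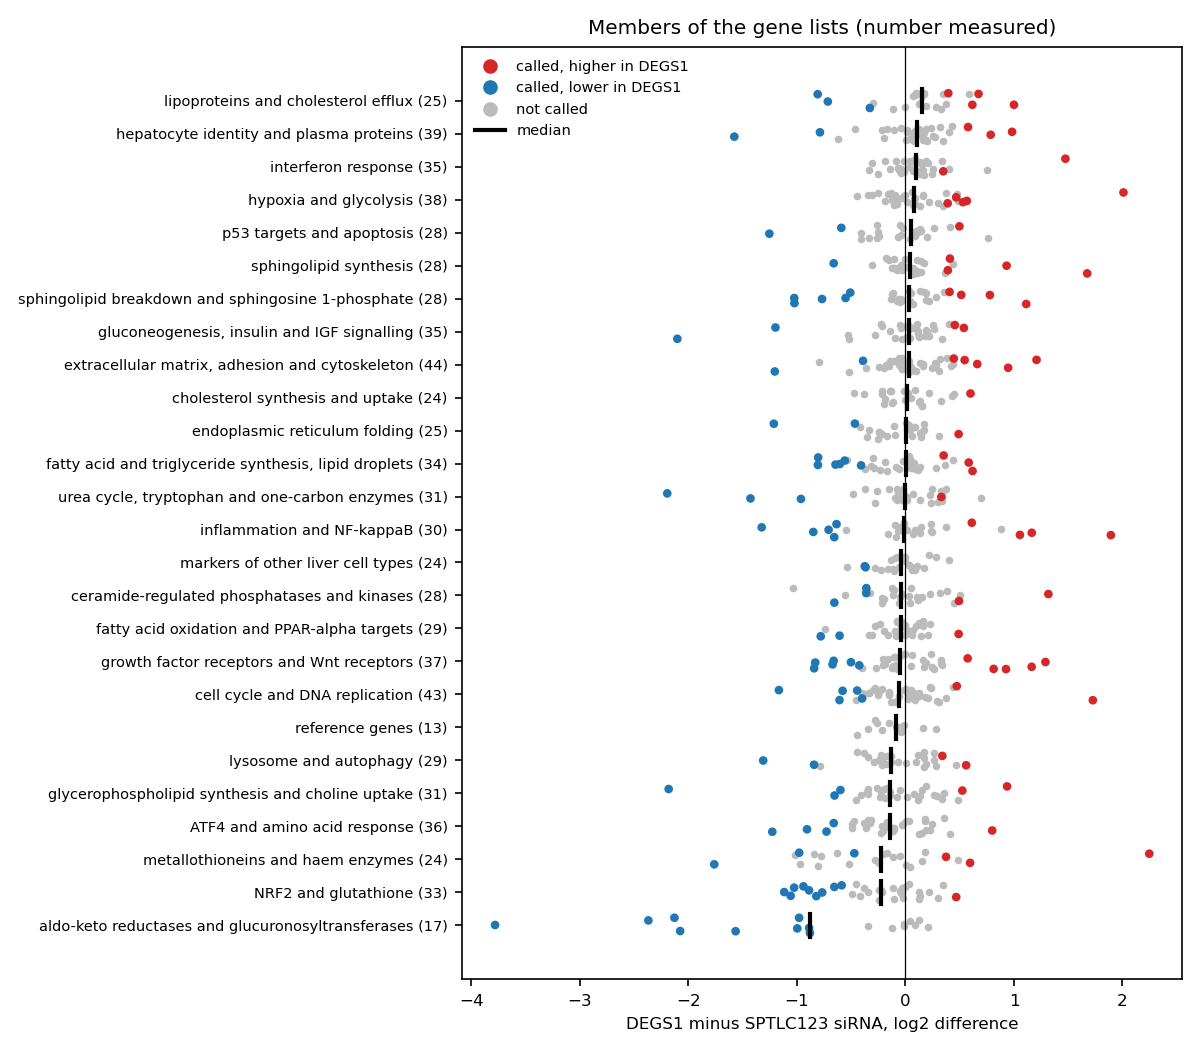
Difference between DEGS1 and SPTLC123 siRNA (log2, horizontal) of every measured member of 26 gene lists, 1 point for each gene, with called genes coloured and a bar at the median of the list. Vertical scatter within a row carries no value. The aldo-keto reductase and glucuronosyltransferase list has the lowest median (-0.88), and the medians of the others lie between -0.23 and 0.15.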

How the data were processed

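Normalized probe-set intensity of 9 Affymetrix arrays was deposited by the authors on a linear scale, 54675 probe sets with array medians from 27.92 to 30. RMA, GCRMA 2.12.1 and limma 2.14.7 are named, per the submitters' processing notes, without role or order, so the method behind the values is not settled, and the genome build is not given in the sources used here. Arrays have no read depth; their number limits the precision.

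Values were log2-transformed without a pseudocount. Leaving out 62 controls, 41091 probe sets had 1 gene symbol in the platform annotation, 1801 had several and 11721 were not listed; 41037 of the first matched RefSeq by gene number. Each of 19775 genes was represented by its 1-gene probe set of highest mean. limma 3.58.1 in R 4.3.3 (lmFit, eBayes, statmod 1.5.0) fitted 1 mean per group to all 9 arrays, with 6 residual degrees of freedom and two-sided tests. The fit was tested on simulated data.

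Members and lists were chosen with earlier results of these data known. Named genes were the targets, the 15 largest called increases and decreases with groups that do not overlap and a higher mean above 4.87, the 4 members of each of 26 lists with the lowest adjusted p, and every called member of 5 lists (sphingolipid synthesis and breakdown, NRF2, aldo-keto reductases with glucuronosyltransferases, ATF4). A few others (such as KDSR, UGCG, MET, ALB, HSPA5 and ATF4) were added after their values were seen. Alternatives were other uses of probe sets, a filter on dim genes, other scaling, variance models, array weights, thresholds, a replicate block, the 5' signal, a pseudocount of 16 and leaving out each array. The labels call the arrays biological replicates; if they share a culture, p-values measure only the spread between these arrays.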

Additional observations from a re-analysis of the deposited data

How the results depend on the processing

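Of 127 named genes that were called, 46 kept their call and direction in every alternative run, AKR1B10, AKR1C1, AKR1C2, CERS2, GLTP, SGPL1, ME1, GCLC, UGDH and LAMP1 among them, and 89 kept it with each array left out in turn. Averaging probe sets ended 23 of the 127 calls and reversed XBP1 and CHPT1 (0.057 and 0.028). Keeping every probe set apart ended 14, fitting only the 6 arrays 13, quantile normalization 8, median centring 7, the actin covariate 5, and the variance trend, the replicate block and the pseudocount 4 each. Most often lost in these were IFIT2, CERS5 and PECAM1. The count of called genes stayed within 1.5 times of 1713 under every probe-set, filter, normalization, variance, pseudocount and 5' term tried (1347 to 2145), with these exceptions. Array weights gave 3999 (1769 higher, 2230 lower, 376 at least 2-fold). A threshold of 0.01 gave 717 (328 and 389). Without the 3 arrays of weak 5' signal 281 were called (159 and 122; 154 at least 2-fold), with fewer arrays. Keeping every probe set gave 378 at least 2-fold, against 224, and averaging them 126. Leaving out single arrays gave 841 to 2911 in all, 397 to 1202 higher, 444 to 1709 lower and 185 to 389 at least 2-fold. Quantile normalization gave 49.8% higher, and median centring 31.7%, against 42.7%. The cause of these moves was not tested.

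The replicate block gave 1801 genes, 1569 of them among the 1713. Deviations of same-numbered DEGS1 and SPTLC123 arrays correlated at 0.40, -0.28 and 0.54. Weak 5' signal was in neither array of replicate 1, in DEGS1 alone for replicate 2 and in both arrays of replicate 3. The correlations therefore cannot tell pairing from the class of 5' signal, and the numbers were not taken to pair the arrays. With 3 arrays a group, 1 of 3 SPTLC123 and 2 of 3 DEGS1 arrays having weak 5' signal, and levels near background compressing a difference, small differences and those of dim genes are the least certain.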

Other observations

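Of 24 measured metallothionein and haem genes 3 were higher and 3 lower in DEGS1 siRNA (12.5% and 12.5%, against 3.70% and 4.96% of all genes, median -0.23), and 1 and 0 without arrays of weak 5' signal. Beside CPOX and MT1M, PPOX, the enzyme that follows CPOX in haem synthesis, differed by 0.60 ± 0.14 (adjusted p = 0.0257) and the iron exporter SLC40A1 by -0.98 ± 0.11 (adjusted p = 0.000438). The other probe set of SLC40A1 had the opposite sign. Of 28 ceramide-regulated phosphatases and kinases 2 were higher and 3 lower in DEGS1 siRNA (7.14% and 10.7%, median -0.04), and 1 and 0 without arrays of weak 5' signal. MAPK8, the stress kinase JNK1, read 8.21, 7.92 and 7.79 in the DEGS1 arrays, 6.84, 6.63 and 6.49 in the SPTLC123 arrays and 7.73, 8.01 and 7.93 in the scramble arrays, with the SPTLC123 arrays below the other 6, and differed by 1.32 ± 0.13 (adjusted p = 0.000194). Its relative MAPK9, JNK2, was lower at -0.66 ± 0.16 (adjusted p = 0.0245), the scaffold subunit PPP2R1A of protein phosphatase 2A differed by -0.36 ± 0.09 (adjusted p = 0.0306) and the kinase MAP3K1 by -0.36 ± 0.09 (adjusted p = 0.0312). The call was lost with 1 array left out for PPOX without DEGS1 replicate 2 or 3 or SPTLC123 replicate 1 or 3 (adjusted p from 0.0677 to 0.108) and MAPK9 without DEGS1 replicate 2 or 3 or SPTLC123 replicate 1 or 2 (adjusted p from 0.0949 to 0.109). The same held for PPP2R1A without DEGS1 replicate 2 or 3 or SPTLC123 replicate 1 or 2 (adjusted p from 0.0962 to 0.129) and MAP3K1 without DEGS1 replicate 2 or 3 or SPTLC123 replicate 1 or 3 (adjusted p from 0.058 to 0.138). On the mean of probe sets the call was lost for PPOX (0.25, adjusted p = 0.0753) and SLC40A1 (-0.35, adjusted p = 0.0587). Averaging over probe sets gave -0.62 for MAP3K1, still called. Omission of the arrays of weak 5' signal kept the call of MAPK8 and ended that of PPOX, SLC40A1, MAPK9, PPP2R1A and MAP3K1 (adjusted p from 0.0552 to 0.39, at 0.58 to 1.08 times the difference over all arrays).

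Of 30 measured genes of inflammation and NF-kappaB 4 were higher and 5 lower in DEGS1 siRNA (13.3% and 16.7%, against 3.70% and 4.96% of all genes, median -0.01), and 1 and 1 without arrays of weak 5' signal. TNFSF4, the ligand OX40L, differed by -1.32 ± 0.16 (adjusted p = 0.00062), the interleukin 1 receptor IL1R1 by -0.64 ± 0.10 (adjusted p = 0.00319) and the chemokine CXCL3 by 1.05 ± 0.18 (adjusted p = 0.00429). Of 35 interferon genes 2 were higher and 0 lower in DEGS1 siRNA (5.71% and 0%, median 0.10, 0 lower at an unadjusted p under 0.05 in limma), and 1 and 0 without arrays of weak 5' signal, the exonuclease ISG20 at 1.47 ± 0.17 (adjusted p = 0.000446) and IFIT2 at 0.35 ± 0.10 (adjusted p = 0.0486), whose SPTLC123 mean lay below 4.87. Of 43 genes of the cell cycle 2 were higher and 5 lower in DEGS1 siRNA (4.65% and 11.6%, median -0.06), and 1 and 1 without arrays of weak 5' signal, with the replication factor GINS1 at -1.17 ± 0.10 (adjusted p = 7.15e-05), MCM5 at 0.47 ± 0.10 (adjusted p = 0.0114) and BIRC5, survivin, at -0.58 ± 0.12 (adjusted p = 0.0133). Of 28 genes of p53 and apoptosis 1 was higher and 2 lower in DEGS1 siRNA (3.57% and 7.14%, median 0.05), and 0 and 0 without arrays of weak 5' signal, GDF15 at -1.25 ± 0.22 (adjusted p = 0.00602), XIAP at -0.59 ± 0.11 (adjusted p = 0.00862) and BIRC2 at 0.50 ± 0.09 (adjusted p = 0.0055). The shares of the interferon and p53 lists were near those of all genes. Among 13 reference genes the outermost differences, neither of them called, were -0.44 ± 0.17 (adjusted p = 0.142) for YWHAZ and 0.28 ± 0.09 (adjusted p = 0.0848) for GUSB. With 1 array left out, no call remained for IFIT2 without DEGS1 replicate 1, 2 or 3 or SPTLC123 replicate 1, 2 or 3 (adjusted p from 0.055 to 0.178) and MCM5 without DEGS1 replicate 3 or SPTLC123 replicate 1 (adjusted p from 0.0548 to 0.0573). The same held for BIRC5 without DEGS1 replicate 2 or 3 or SPTLC123 replicate 1 or 2 (adjusted p from 0.0535 to 0.0644). With probe sets averaged, the call was lost for IL1R1 (-0.50, adjusted p = 0.134). The value averaged over probe sets was -0.47 for GDF15, still called. Without the 3 arrays of weak 5' signal the call held for TNFSF4, ISG20 and GINS1 and was lost for IL1R1, CXCL3, IFIT2, MCM5, BIRC5, GDF15, XIAP and BIRC2 (adjusted p from 0.0837 to 0.334, at 0.638 to 1.17 times the difference over all arrays).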
